A study of Mus musculus with 6 samples.

Results

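The genes described here encode the phagocyte NADPH oxidase, with its Rac GTPases and the liver homologue Nox4, in mouse hepatocytes with and without the splicing factor SRSF1. The 7 members were Cybb, Cyba, Ncf1, Ncf4, Rac1, Rac2 and Nox4. They were found by symbol among 19123 tested genes, and where a gene had several rows its brightest one was used. The set was chosen by the measured knockout against wild type difference of Cybb, which was already known, so its own difference is given as a description with no test. The others entered as its partners or homologue, and the question was whether they share the Cybb difference.

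RNA levels were read on mouse exon arrays, 1 array per sample, from untreated primary hepatocytes obtained by liver perfusion. The control group was 3 arrays from wild type C57BL/6 mice aged 3 months. The knockout group was 3 arrays from mice of the same background and age, labelled SRSF1HKO, which lack SRSF1 in hepatocytes. The sources used here do not give the Cre driver, the deleted exons or any time in culture. No label states that each array is a separate animal. Each sample title does carry its own number, whose meaning is not given, and knockout replicate 1 differed in sex from the others (below). How far the spread between arrays behind the p-values is technical is therefore not known.

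The phagocyte oxidase moves electrons from NADPH across a membrane to oxygen and so makes superoxide, which neutrophils and macrophages use against microbes. Its membrane core is a heterodimer of the catalytic heavy chain (Cybb) and a light chain (Cyba), each of which stabilises the other. On activation, cytosolic subunits, among them the organizer Ncf1 and the phosphoinositide-binding Ncf4, and a Rac GTPase join the core. In liver the complex is best known from Kupffer cells, the resident macrophages, and from infiltrating leukocytes. Nox4 is a catalytic relative that also pairs with the light chain but needs no cytosolic subunits.

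Array scales differed. Their median intensity ran from 25.6 to 39.8 in wild type and from 18.6 to 28.8 in the knockout, which put the median gene at -0.44 log2 units (knockout minus wild type) on the deposited values and at -0.01 after quantile normalization. Log2 differences below are those of log2(intensity + 16) after quantile normalization, with their standard error over 3 against 3 arrays. The words rose and fell are kept for genes whose Benjamini-Hochberg adjusted p in limma, taken over all genes, was under 0.05 both after quantile normalization and on the deposited values. Knockout replicate 1 stood apart: the X-linked noncoding RNA Xist read 9.95 in it and 2122 to 3532 in the other arrays, and the Y-linked Kdm5d 132 against 12.1 to 35.8, so by these genes it came from a male and the others from females. Srsf1 itself read 607 to 667 in wild type and 242 to 386 in the knockout, a difference of -0.53 ± 0.18 after quantile normalization that did not pass (limma, adjusted p = 0.184) and was -0.35 without knockout replicate 1. On the deposited values it was -0.95 ± 0.27 (limma, adjusted p = 0.010). With 3 arrays a group, precision is limited throughout.

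Cybb was the 1 member of 7 that passed both fits, on a background of 0.842% of all tested genes passing upward and 1.41% downward. Since its difference chose the members, nothing is read from that count. Its single row (7015521) read 78.0, 64.1 and 40.8 over the 3 wild type arrays, against 794, 820 and 482 over the 3 knockout arrays, in the order of replicates 1, 2 and 3 that is kept throughout. The lowest knockout array was thus far above the highest wild type array. After quantile normalization the knockout mean was 16.9 times the wild type mean, a log2 difference of 3.68 ± 0.25. Within the whole set of rows, Cybb moved from between the 67.0th and 79.3rd percentile of brightness in the wild type arrays to between the 98.5th and 99.4th in the knockout arrays. Cybb lies on the X chromosome, and knockout replicate 1 lay between the other 2 knockout arrays as deposited and was the highest after quantile normalization (1143, against 911 and 564). Without that replicate its log2 difference was 3.54 ± 0.20.

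**Figure D1:**
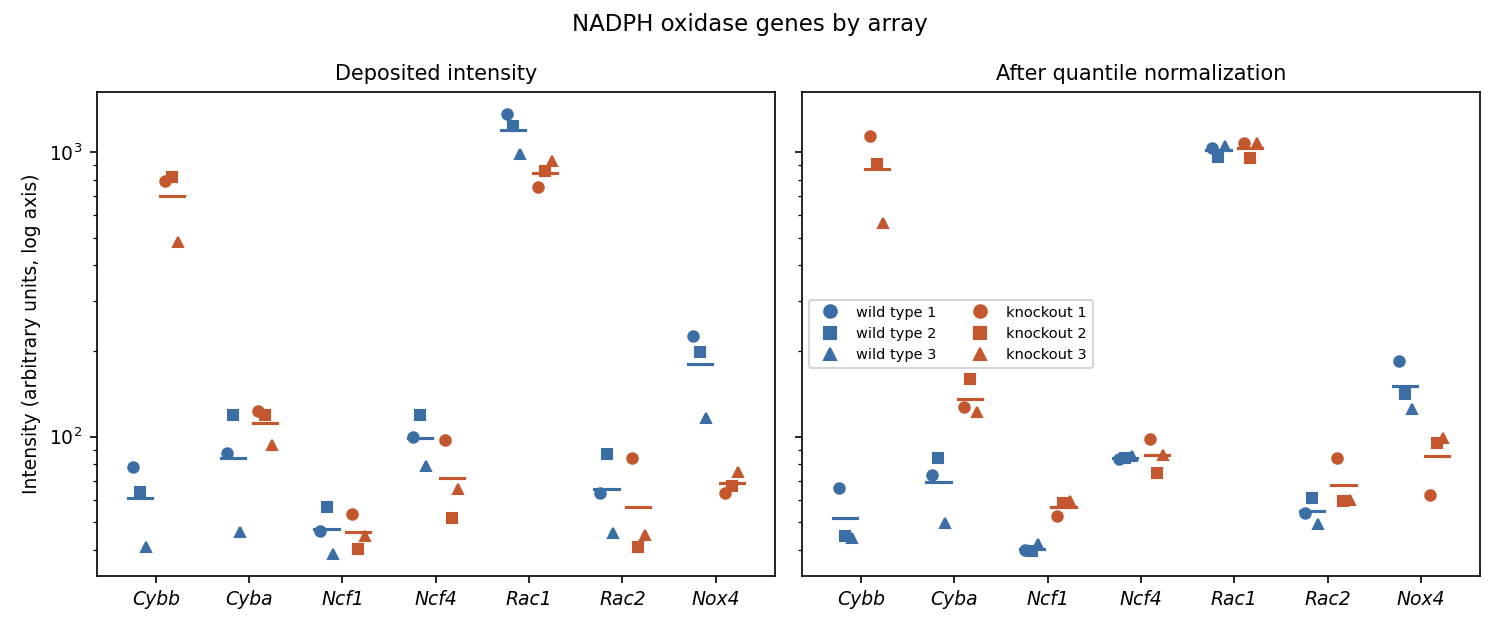
Intensity of the 7 genes in each of the 6 arrays (log axis, arbitrary units), as deposited on the left and after quantile normalization on the right; each symbol is 1 array and each short bar a group mean. The knockout arrays read 482 to 820 for Cybb as deposited, against 40.8 to 78.0 in wild type, while the groups of Ncf4 and Rac2 overlap in both panels and those of Rac1 in the right panel.

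Cyba, the light chain that the heavy chain needs for stability, had a difference of much smaller size. It read 87.2, 119 and 46.3 in the 3 wild type arrays, against 123, 119 and 93.3 in the 3 knockout arrays, so the groups overlapped on the deposited values. After quantile normalization they did not overlap: the values were 73.5, 84.1 and 49.8 in the wild type arrays, against 127, 159 and 122 in the knockout arrays. The log2 difference was 0.85 ± 0.18 (limma, adjusted p = 0.034), with a 95% interval from 0.44 to 1.26, where 2.74% of all genes passed upward in that fit. On the deposited scale it was 0.41 ± 0.30 (limma, adjusted p = 0.267), so Cyba did not pass both fits. After quantile normalization its call was also lost when any 1 array other than knockout replicate 1 was left out, with differences from 0.68 to 0.97. In those settings the calls over all genes fell as well, from 796 to between 309 and 583.

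The cytosolic subunits differed little. Ncf1, which brings the cytosolic subunits to the membrane core, read 46.5, 56.8 and 38.8 in the 3 wild type arrays, against 53.6, 40.2 and 44.9 in the 3 knockout arrays. These groups overlapped as deposited and separated after quantile normalization (39.5 to 41.8 against 52.5 to 59.3). The log2 difference of 0.37 ± 0.12 did not pass (limma, adjusted p = 0.175), and its 95% interval ran from 0.08 to 0.65. Ncf4 read 99.4, 119 and 79.1 in the 3 wild type arrays, against 97.4, 51.9 and 65.5 in the 3 knockout arrays, with overlapping groups. Its normalized difference was 0.02 ± 0.13 (limma, adjusted p = 0.974), with a 95% interval from -0.28 to 0.33.

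The Rac GTPases, the switch that completes the active complex, showed no difference past the threshold. Rac1, which is expressed in most cell types, read 1360, 1236 and 982 in the 3 wild type arrays, against 754, 855 and 932 in the 3 knockout arrays. Its knockout arrays were all lower as deposited, and after quantile normalization the groups overlapped (963 to 1049 against 949 to 1079). The difference was then 0.02 ± 0.11 (limma, adjusted p = 0.965), with a 95% interval from -0.22 to 0.26. Rac2, the form largely restricted to blood cells, read 63.5, 86.7 and 45.7 in the 3 wild type arrays, against 83.9, 41.0 and 45.2 in the 3 knockout arrays. Its groups overlapped, and the normalized difference was 0.24 ± 0.16 (limma, adjusted p = 0.577), with a 95% interval from -0.11 to 0.59. Whether the probes tell these closely related GTPases apart was not tested here.

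Several rows of Rac2 and Rac1 differed from the brightest. A dimmer Rac2 row (6837027) read 9.44, 23.2 and 8.63 in the 3 wild type arrays, against 11.3, 63.6 and 76.9 in the 3 knockout arrays. It was thus high in knockout replicates 2 and 3 and not in replicate 1, with a difference of 1.36 after quantile normalization. The remaining Rac2 row (6837026) read 29.6 to 46.1 in wild type and 18.1 to 25.8 in the knockout, and after quantile normalization its groups overlapped, with a difference of -0.13. The dimmer Rac1 row (6832776) read 89.5 to 163 in wild type and 62.9 to 82.5 in the knockout, a difference of -0.25 after quantile normalization. The 4 genes Cybb, Cyba, Ncf1 and Ncf4 had 1 row each.

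Nox4, the homologue that is constitutively active, lay on the other side of 0. It read 226, 197 and 117 in the 3 wild type arrays, against 63.4, 67.2 and 75.0 in the 3 knockout arrays, and every knockout array was below every wild type array. After quantile normalization the groups still did not overlap (125 to 185 against 62.4 to 98.5), and the log2 difference was -0.72 ± 0.19 (limma, adjusted p = 0.079), with a 95% interval from -1.15 to -0.29. On the deposited scale, where the median gene also lay lower, it was -1.17 ± 0.29 (limma, adjusted p = 0.0027). Nox4 therefore passed on the deposited scale alone with all arrays, where 6.86% of all genes passed downward. Without knockout replicate 1 it passed both fits, as 5.26% of all genes did downward (0.957% upward), at -0.56 ± 0.15 after quantile normalization (limma, adjusted p = 0.030). Its other rows (6962350 and 6962351) were under the brightness filter.

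**Figure D2:**
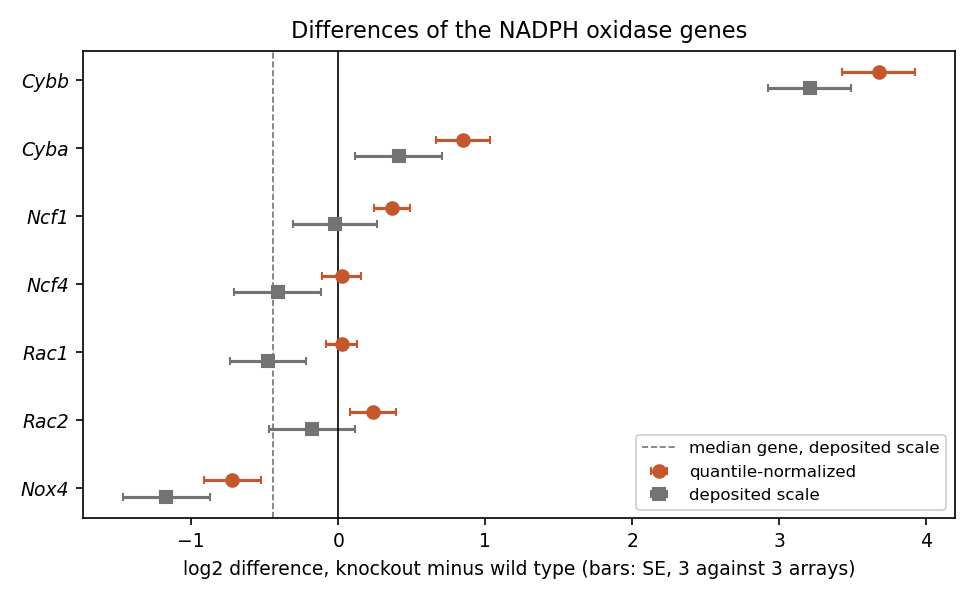
Log2 difference, knockout minus wild type, of each of the 7 genes after quantile normalization (circles) and on the deposited scale (squares), with bars for the standard error of 3 against 3 arrays and a dashed line at the median gene on the deposited scale (-0.44). Cybb stands at 3.68 after normalization, Cyba at 0.85 and Nox4 at -0.72, and the other 4 lie between 0.02 and 0.37.

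After quantile normalization the groups did not overlap for 3 members on the higher side (Cybb, Cyba and Ncf1) and 1 on the lower (Nox4), where 11.6% and 10.1% of all tested genes did the same. The median difference over the 7 members was 0.24, beside -0.01 for all tested genes. The choice of Cybb enters both counts. Brightness also limited what could be seen: Ncf1 lay between the 63.3rd and 76.5th percentile of all rows on every array and Rac2 between the 70.8th and 84.9th, while Rac1 never lay under the 99.2nd. The files give no background level, so whether the dim members were above background is unknown.

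The contrast between Cybb and its partners was also taken within each array, as log2 Cybb minus log2 partner, which a scale factor of the array hardly touches. Between knockout and wild type this gap widened by 2.83 ± 0.34 against Cyba, 3.31 ± 0.37 against Ncf1 and 3.65 ± 0.32 against Ncf4. It widened by 3.65 ± 0.34 against Rac1, 3.44 ± 0.27 against Rac2 and 4.40 ± 0.45 against Nox4. On the deposited scale the values ran from 2.80 for Cyba to 4.38 for Nox4. For each partner the lowest knockout array was above the highest wild type array, but as Cybb was chosen for its difference these gaps are descriptions with no test. The upper 95% limits of the partners' own differences ended at 1.26 for Cyba and lower for the other 5. These limits are those of the brightest rows, and the dimmer Rac2 row 6837027 had a difference of 1.36 after quantile normalization.

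**Figure D3:**
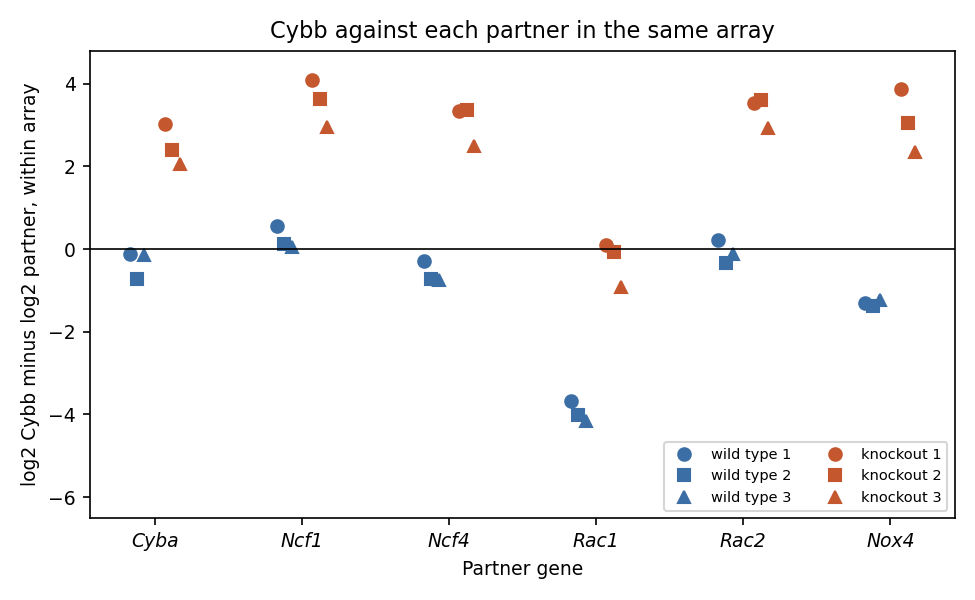
Log2 value of Cybb minus that of each partner in the same array after quantile normalization, with each symbol 1 array. Levels of different genes are not comparable on these arrays, so only the shift between wild type and knockout symbols within a column carries meaning: it is smallest for Cyba (2.83) and largest for Nox4 (4.40).

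The promoter windows of the genes whose knockout arrays were all higher after normalization are shown. Cybb, whose difference chose the members, is among them. The windows were thus picked by these same data, so no enrichment is read from the matches. RefSeq (GRCm38.p6, a later build than that of the arrays) gave a promoter for 4 of the 7 members, Cybb, Cyba, Ncf1 and Nox4. The 250 bases before the annotated start were searched on both strands for GAGGAA, a core bound by the myeloid factor PU.1, for GAAANNGAAA, a core bound by interferon regulatory factors, and for CCAAT. Capitals mark GAAANNGAAA on either strand, and each line is on the strand of the gene.
Cybb, chrX:9469325-9469574, minus strand: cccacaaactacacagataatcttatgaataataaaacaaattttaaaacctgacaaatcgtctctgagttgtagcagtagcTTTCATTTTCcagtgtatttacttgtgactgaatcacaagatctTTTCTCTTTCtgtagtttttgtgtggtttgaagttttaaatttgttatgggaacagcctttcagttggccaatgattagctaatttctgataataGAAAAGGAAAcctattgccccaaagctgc
Cyba, chr8:122432941-122433190, minus strand: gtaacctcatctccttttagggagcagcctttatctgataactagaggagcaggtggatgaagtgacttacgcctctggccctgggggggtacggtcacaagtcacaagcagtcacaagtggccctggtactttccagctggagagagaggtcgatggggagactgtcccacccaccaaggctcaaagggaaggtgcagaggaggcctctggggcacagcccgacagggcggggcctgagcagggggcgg
Ncf1, chr5:134229626-134229875, minus strand: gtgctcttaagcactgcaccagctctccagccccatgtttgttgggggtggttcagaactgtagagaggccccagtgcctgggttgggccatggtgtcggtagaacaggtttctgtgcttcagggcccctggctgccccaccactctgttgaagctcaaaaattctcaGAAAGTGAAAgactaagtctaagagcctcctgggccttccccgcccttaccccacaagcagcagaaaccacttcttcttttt

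The Cybb window held GAAANNGAAA at 3 places, which begin 168, 124 and 29 bases before the start, and the Ncf1 window held it once, 82 bases before the start. Neither Cyba nor Nox4 held it, and it occurred in 2.98% of 32851 windows of the same length in the table. CCAAT occurred once, in the Cybb window, 56 bases before the start, and in 33.8% of all windows. GAGGAA occurred in none of the 4 windows and in 23.3% of all. These are matches of letters and not measured binding.

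Of 21 listed genes that assemble or activate the oxidase, 18 were tested and 0 passed both limma fits. Over all genes 0.842% passed both fits upward and 1.41% downward. At these shares a count of 0 says little about a short list, here and in the lists below. At an unadjusted p under 0.05, 3 of the 18 were higher and 0 lower (8.96% and 6.41% of all genes). The tyrosine kinase Syk, which relays Fc receptor signals, had 0.60 ± 0.16 (limma, adjusted p = 0.071) and the Rac effector kinase Pak2 0.41 ± 0.12 (adjusted p = 0.122). Arhgdib, which holds Rac GTPases in the cytosol of blood cells, had 0.53 ± 0.18 (limma, adjusted p = 0.159), and the kinase Prkcd, which phosphorylates cytosolic subunits, 0.42 ± 0.20 (adjusted p = 0.365). Cybc1, the chaperone of the heterodimer of Cybb and Cyba, read 299 to 478 in wild type and 281 to 306 in the knockout. Its normalized difference was 0.08 (limma, adjusted p = 0.877). The median over the list was 0.15, beside -0.01 for all genes, and on the deposited scale it was -0.24, beside -0.44.

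The other NADPH oxidases and their helpers had small differences. All 8 were tested, 0 passed both limma fits and 0 had an unadjusted p under 0.05, and their differences ran from -0.24 for Noxa1, an activator of Nox1, to 0.13 for the dual oxidase Duox2. Nox3 and the organizer Noxo1 had -0.08 and 0.04. Of 12 transcription factors known to act on Cybb or on myeloid genes, 10 were tested and 0 passed both limma fits. At an unadjusted p under 0.05, 2 were higher and 1 lower (8.96% and 6.41% of all genes). Irf8, a myeloid interferon regulatory factor, had 0.64 ± 0.15 (limma, adjusted p = 0.051), and Spi1, which encodes PU.1, 0.70 ± 0.26 (adjusted p = 0.213). Irf2, a repressor of interferon genes, had -0.27 ± 0.11 (limma, adjusted p = 0.282), and Rela, a subunit of NF-kB, 0.40 ± 0.18 (adjusted p = 0.327). Without knockout replicate 1, 1 factor fell in both fits (5.26% of all genes did), the C/EBP family member Cebpb at -0.59. In that setting 3 factors passed upward after quantile normalization alone (9.69% of all genes were higher), Irf8 at 0.74, Spi1 at 0.84 and Irf1 at 0.61.

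Genes of antioxidant defence were also listed, among them enzymes that remove superoxide and peroxides, the products of the oxidase. Of 20 listed, 16 were tested and 0 passed both limma fits (0.842% of all genes upward, 1.41% downward). At an unadjusted p under 0.05, 4 were higher and 1 lower (8.96% and 6.41% of all genes). Gpx4, the lipid peroxide reductase, read 547 to 833 in wild type and 701 to 1073 in the knockout. It passed after quantile normalization alone (0.73 ± 0.15, limma, adjusted p = 0.032). The quinone reductase Nqo1 had 0.69 ± 0.16 (limma, adjusted p = 0.052) and the heme oxygenase Hmox1 0.69 ± 0.19 (adjusted p = 0.090). The superoxide dismutase Sod3 had 0.67 ± 0.24 (limma, adjusted p = 0.194). The cytosolic superoxide dismutase Sod1 lay lower, at -0.42 ± 0.12 (limma, adjusted p = 0.105).

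Most tested markers of lipid-associated macrophages rose, and of the markers of resident macrophages 1 passed both fits and 7 of 14 were higher at an unadjusted p under 0.05. Hepatocyte preparations can hold other liver cells, and in such bulk samples more cells of a type and more RNA per cell cannot be told apart. Of 8 listed markers of lipid-associated macrophages 7 were tested, and 4 rose (0.842% of all genes did). Mmp12, the macrophage elastase, read 8.46 to 14.4 in wild type and 121 to 191 in the knockout, a difference of 2.90 ± 0.21 (limma, adjusted p = 0.00022). Gpnmb, a lysosomal glycoprotein, rose by 3.05 ± 0.28, the tetraspanin Cd9 by 2.14 ± 0.29 and the lipase Lpl by 1.59 ± 0.22. The receptor Trem2 had 0.82 ± 0.20 (limma, adjusted p = 0.054), and Fabp5 and Cd63 had -0.04 and -0.03. The list's median was 1.59, and its summed normalized intensity was 625 to 732 in wild type and 1869 to 2517 in the knockout. The list was drawn up with earlier results of these data known, among them the higher Gpnmb, so no enrichment is read from this count.

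Of 14 tested Kupffer cell markers 1 rose, the macrophage lysosomal protein Cd68, at 1.82 ± 0.35 (limma, adjusted p = 0.021). At an unadjusted p under 0.05, 7 were higher and 0 lower (8.96% and 6.41% of all genes), and for 6 every knockout array was above every wild type array after normalization (11.6% of all genes). Without knockout replicate 1, 5 were higher in the quantile-normalized fit, as were 9.69% of all genes. The secreted macrophage protein Cd5l had 0.72 ± 0.17 (limma, adjusted p = 0.052), Timd4 0.52 ± 0.14 (adjusted p = 0.076) and the complement subunit C1qc 0.73 ± 0.21 (adjusted p = 0.104). Clec4f, a lectin confined to Kupffer cells, had 0.13, and the growth factor receptor Csf1r 0.03. The list's median was 0.50, and its summed normalized intensity was 1091 to 1716 in wild type and 2026 to 2281 in the knockout. Of 12 tested general leukocyte markers 0 passed both limma fits, 7 were higher and 0 lower at an unadjusted p under 0.05, and for 7 the knockout arrays were all above wild type. Of these markers 5 passed after quantile normalization alone (background 2.74%). These were Laptm5 (0.86), the integrin Itgb2 (0.87), Cd52 (0.80), the leukocyte phosphatase Ptprc (0.72) and Fcer1g (0.69), beside 0.85 for Cyba. The list's median was 0.43 and its summed normalized intensity 1106 to 1268 in wild type and 1354 to 1550 in the knockout. Without knockout replicate 1 the counts past both fits were the same, 4 lipid-associated, 1 Kupffer and 0 leukocyte markers (0.957% of all genes passed upward). That fit reuses the other arrays, so the equal counts are no separate support. On the deposited scale the medians of these 3 lists were 1.12, 0.06 and 0.05, beside -0.44 for all genes.

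Of 8 tested markers of neutrophils, cells that carry much of this oxidase, 0 passed both limma fits (0.842% of all genes upward, 1.41% downward). At an unadjusted p under 0.05, 1 was higher (8.96% of all genes), Csf3r at 0.35 ± 0.14 (limma, adjusted p = 0.275). S100a8 had 0.20, Mpo -0.05 and Cxcr2 -0.09, the median was 0.03, and the summed normalized intensity was 689 to 803 in wild type and 680 to 910 in the knockout. Among lymphoid, dendritic, endothelial, stellate and bile duct markers 0 of 31 passed both fits (0.842% of all genes upward, 1.41% downward). Their medians were 0.09, 0.11, -0.12, 0.30 and -0.004. In these 5 lists 4 genes were higher and 0 lower at an unadjusted p under 0.05 (8.96% and 6.41% of all genes). These were the stellate markers Dcn (0.96 ± 0.27), Pdgfrb (0.77 ± 0.24) and Col3a1 (0.36 ± 0.15) and the bile duct marker Sox9 (0.44 ± 0.16). The gene of the lowest p in the other lists was Gzma (0.21) among lymphoid, Clec9a (0.27) among dendritic and Lyve1 (0.32) among endothelial markers. Without knockout replicate 1 the matrix proteoglycan Dcn rose in both fits (1.30), as 0.957% of all genes did. Among hepatocyte markers albumin (Alb) read 10035 to 11053 in wild type and 6937 to 10757 in the knockout. It passed downward after quantile normalization alone (-0.39 ± 0.05, limma, adjusted p = 0.0023), as 1.42% of all genes did. On the deposited scale it was -0.26 ± 0.25 (limma, adjusted p = 0.383). Alb was the brightest row on all 3 wild type arrays, so normalization gave them 1 shared value. The small standard error and the p after normalization therefore do not measure the spread of albumin. Of 7 tested hepatocyte markers, 0 passed both limma fits, with a median of -0.12. At an unadjusted p under 0.05, 3 were lower, albumin among them, and 0 higher (6.41% and 8.96% of all genes). Without knockout replicate 1 Pck1, an enzyme of glucose synthesis, fell in both fits (-0.25), as 5.26% of all genes did. No marker was listed at 0. The part of macrophages or other cells in the Cybb and Cyba values was not tested.

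**Figure D4:**
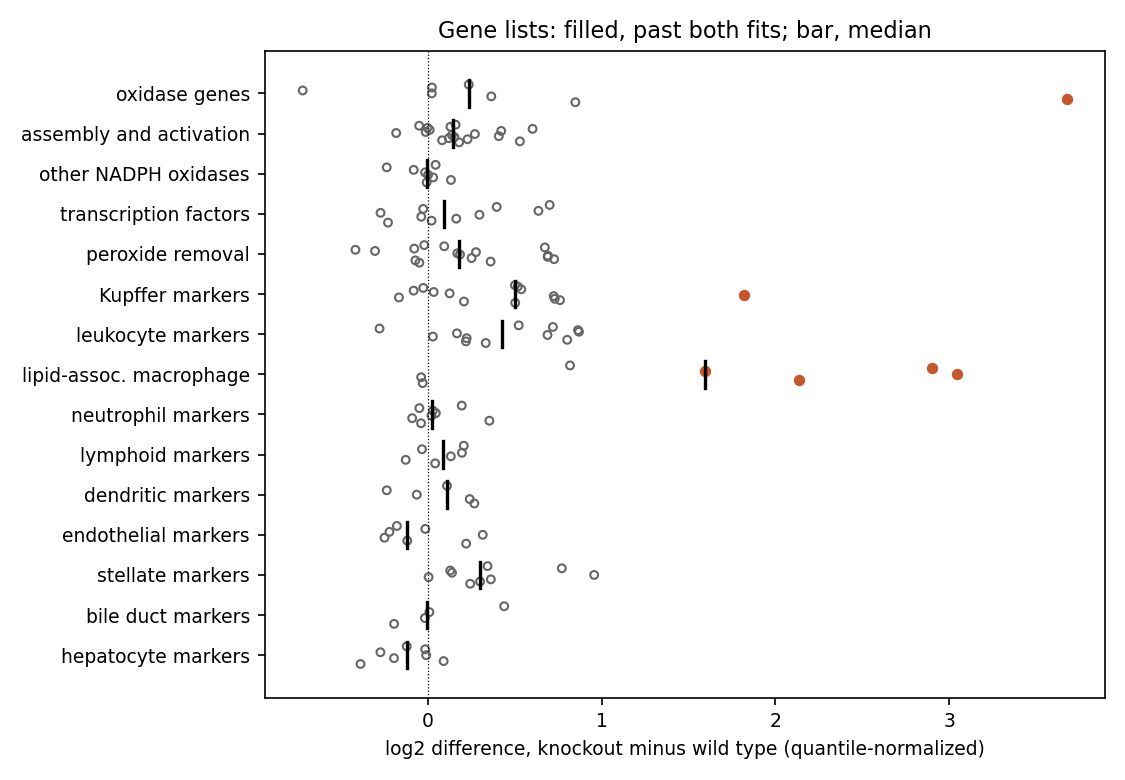
Log2 difference after quantile normalization, knockout minus wild type, of every tested gene in the oxidase list, the 4 pathway lists and the 10 cell type lists; filled points passed both fits and the vertical bar is the list's median. Cybb (3.68) lies to the right of all points, followed by Gpnmb (3.05) and Mmp12 (2.90) among lipid-associated macrophage markers, while the median of neutrophil markers is 0.03.

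With gene models and olfactory and vomeronasal receptors left out, Pdgfa, Pygb, Npdc1, Spire2 and B4galt5 were most like Cybb over the 6 arrays. Their Pearson's r ran from 0.998 to 0.9997 on the normalized log2 scale. All 5 share with Cybb a separation of the groups, and with 6 arrays such a correlation mainly records the difference between groups. Pygb, the brain form of glycogen phosphorylase, had a difference of 3.11 ± 0.23 and Npdc1 of 2.77 ± 0.17, and those of the growth factor Pdgfa (1.43 ± 0.14), the galactosyltransferase B4galt5 (1.34 ± 0.12) and the actin nucleator Spire2 (1.07 ± 0.14) were smaller. Among the partners the same correlation was 0.92 for Ncf1, 0.90 for Cyba, 0.69 for Rac2, 0.16 for Ncf4, 0.15 for Rac1 and -0.85 for Nox4. By this measure Ncf1 had rank 689 and Cyba rank 824 among all 19123 tested genes, Cybb itself included.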

How the data were processed

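Total RNA of 6 hepatocyte samples was hybridised to 1 mouse exon array each, and the labelled genotype set the groups. The authors deposited intensity values summarised with PLIER, with the mm9 build, per the submitters' processing notes; the PLIER version, its background step and any scaling of arrays to each other are not stated there. The scale is linear and the columns do not share a distribution. Of 238609 rows, 24343 carry 1 gene symbol in the platform annotation, 1797 several (named as no gene) and 212469 are unnamed here. Each row summarises a transcript unit, so exon usage is not analysed.

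Rows under the 40th percentile of mean log2(intensity + 16) were left out, each gene was its brightest row, and all rows were quantile normalized. Knockout and wild type were compared with limma 3.58.1 in R 4.3.3 (intensity trend, no covariates, Benjamini-Hochberg adjustment over 19123 genes). The same fit was run on the deposited scale. The fits were tested on simulated data. Named were all members, Srsf1, up to 4 genes of the lowest p per list, every gene past both fits, 5 genes most like Cybb and 3 neighbours on each side of it; Xist, Kdm5d, Cybc1, Fabp5, Cd63, Cebpb and some further list members were named after their values were seen. The members and lists were chosen with earlier results of these data known. Alternatives were the scale, pseudocount, filter, row rule, robust variances and each array left out.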

Additional observations from a re-analysis of the deposited data

Results flagged for a closer look

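A Rac2 row outside the comparison, 6837027, had a mean quantile-normalized intensity of 67.2 in the knockout, above the highest wild type array at 15.9. Knockout replicate 1 read 10.6, and replicates 2 and 3 read 90.2 and 101, so the signal came from 2 of 3 arrays. The brightest Rac2 row did not share this: it read 83.9, 59.5 and 59.8 in the knockout after normalization, against 49.2 to 60.7 in wild type. The difference between the rows was not tested.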

How the results depend on the processing

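Each result was recomputed under 8 other settings and with each of the 6 arrays left out. The Cybb difference was above 0 in all 14 and ran from 2.97 (pseudocount 64) to 4.02, with 3.21 on the deposited scale and 3.54 to 3.94 with an array left out. With pseudocount 64 its gap was 2.38 to Cyba, 2.76 to Ncf1, 2.96 to Ncf4, 2.95 to Rac1, 2.83 to Rac2 and 3.49 to Nox4; with an array left out the gaps ran from 2.63 to 3.02, 3.12 to 3.60, 3.47 to 3.92, 3.50 to 3.95, 3.27 to 3.64 and 4.09 to 4.76. The Cyba call after normalization was lost on the deposited scale (0.41) and with median scaling (0.86), and Cyba ran from 0.68 to 0.97 with an array left out. On the deposited scale, where the median gene lay at -0.44, Ncf1 (-0.021), Ncf4 (-0.41), Rac1 (-0.48) and Rac2 (-0.18) turned below 0 and Nox4 passed (-1.17). With the median of its rows Rac1 was at -0.11. With an array left out Ncf1 ran from 0.34 to 0.41, Ncf4 from -0.060 to 0.11, Rac1 from -0.015 to 0.083, Rac2 from 0.10 to 0.31 and Nox4 from -0.83 to -0.56. Members past both fits numbered 1, or 2 (Cybb and Nox4) on the deposited scale alone and without knockout replicate 1. All genes called after normalization numbered 796 (34.2% lower), 1489 on the deposited scale (88.0% lower), 317 with median scaling (15.8% lower) and 309 to 2881 with an array left out, the highest without knockout replicate 1. Why these values moved was not tested. No paired analysis was possible because the labels carry no replicate numbers shared between the groups. The files give no background level, which limits what can be said of the dim genes.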

Other observations

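Of the 3 protein-coding genes on each side of Cybb on the X chromosome in the RefSeq table, Dynlt3 and Sytl5 were tested, and Xk and the histone genes H2al1m, H2al1k and H2al1o were not analysed here. Sytl5, which encodes a Rab-binding synaptotagmin-like protein, read 62.6, 25.7 and 35.6 in the 3 wild type arrays, against 108, 99.6 and 58.8 in the 3 knockout arrays, so 1 wild type array reached into the knockout range as deposited. It rose by 1.27 ± 0.27 after quantile normalization (limma, adjusted p = 0.033, and 0.036 on the deposited scale), and by 1.26 without knockout replicate 1. Dynlt3, a dynein light chain gene, read 530 to 821 in wild type and 393 to 735 in the knockout, with overlapping groups and a difference of 0.17 ± 0.17 (limma, adjusted p = 0.759).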
